A study of Homo sapiens with 6 samples.

Results

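The cadherin group examined here comprised 10 genes of 58735 in the deposited table, taken by gene symbol: the cadherin genes CDH1, CDH2, CDH3, CDH4, CDH5, CDH6, CDH11 and CDH13 and the catenin genes CTNNA1 and CTNND1. PolyA RNA had been sequenced from HEY cells, a human line established from an ovarian carcinoma, in 3 libraries of HEY cells overexpressing miR-200a and 3 libraries of HEY cells with the empty vector, called NC in the labels. The labelled incubation was 48 to 50 h with miR-200a and 51 to 53 h with the vector, so hours and group cannot be told apart. These hours rise by 1 h from each library to the next in label order, and whether they are true times was not settled. All 6 libraries carry batch number 1. The vector's promoter and whether the cells were 1 clone or a pool were not stated in the labels, which also do not say whether replicate libraries were made from separate cultures. P-values then measure only the spread between these libraries, which may be technical.

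Classical cadherins are single-pass membrane proteins that bind the same cadherin on the neighbouring cell through their extracellular repeats. Inside the cell their tail binds p120-catenin (CTNND1), which holds the cadherin at the membrane, and beta-catenin or plakoglobin, which recruit alpha-catenin (CTNNA1), the link to actin. CDH1, CDH2, CDH3 and CDH4 encode the type I cadherins called E, N, P and R. CDH5, CDH6 and CDH11 encode VE-, K- and OB-cadherin, which are grouped with type II, CDH5 as a divergent member. CDH13 encodes T-cadherin, which has no such tail and is held by a lipid anchor. In epithelial tumours a loss of E-cadherin with a gain of N-cadherin is the textbook cadherin switch, and the miR-200 family is known for maintaining E-cadherin by repressing ZEB1 and ZEB2, which silence CDH1.

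The overexpressed microRNA is shown first, because its seed was used for the search for matches below. The mature sequences below are from RefSeq (GRCh38.p14), written 5′ to 3′, with bases 2 to 8, the seed, in capitals. miR-200a and miR-141 share a seed, and miR-200b has another.
hsa-miR-200a-3p: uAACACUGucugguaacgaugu
hsa-miR-141-3p: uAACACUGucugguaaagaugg
hsa-miR-200b-3p: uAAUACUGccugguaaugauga

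The 7-base match of the miR-200a seed, CAGTGTT, was looked for in GENCODE 29, in the longest 3′ UTR annotated for a gene. Shorter matches and matches outside 3′ UTRs were not looked for. Of the 10 genes only CTNNA1 held it, with 1 match, and the other 9 held 0. For comparison, 22.4% of the 10219 tested genes with a scanned UTR held at least 1 match. ZEB1 held 3 matches and ZEB2 held 4. The CTNNA1 match begins 983 bases after the stop codon (chromosome 5, 138934791 to 138934820, plus strand, GRCh38). It is shown with the first match in ZEB2 (chromosome 2, 144389229 to 144389258, minus strand), with the match in capitals. The ZEB2 match extends to the 8-base form, CAGTGTTA, and the CTNNA1 match is of the 7-base form alone.
CTNNA1: cacttctaataactgCAGTGTTtcccgcct
ZEB2, match 1: tgcaaaaattttgtaCAGTGTTaaggccta

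The libraries held 15849592 to 21003858 reads on genes, recovered from the FPKM values as described under the processing. FPKM is the number of fragments per kilobase of gene length, scaled to library size by the authors. Of 9 ovarian epithelial markers, KRT7, KRT8, KRT18, PAX8 and MSLN averaged at least 7.84 FPKM in each group. KRT19 averaged 1.06 FPKM with miR-200a and 1.75 FPKM with the vector, and WT1 averaged 0.957 and 0.951 FPKM. MUC16 was listed at 0 in all libraries and EPCAM stayed under 0.5 FPKM. Blood cell markers summed to at most 0.143 FPKM in any library. The precursor gene MIR200A had 5, 4 and 11 reads in the miR-200a libraries and 0 in each vector library. A pair of features of the libraries touch the results below, and were seen across all tested genes. miR-200a 2 resembled vector 2 more closely than its own group, with a chi-square per degree of freedom of 6.74 against vector 2, 19.6 against miR-200a 1 and 21.9 against miR-200a 3. Each library also leaned towards or away from GC-rich transcripts, with a correlation of its deviation with transcript GC content of 0.52 in miR-200a 1, -0.37 in miR-200a 2, 0.50 in miR-200a 3, -0.14 in vector 1, -0.44 in vector 2 and -0.11 in vector 3 (across 12227 genes, which are not independent replicates).

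HEY cells expressed CDH5, CDH2 and CDH4 together with both catenins, and held almost no message of the other 5 cadherins, in both groups. Genes were tested where they reached 1 FPKM in at least 3 of the 6 libraries, which 5 of the 10 did: CDH2, CDH4, CDH5, CTNNA1 and CTNND1. None of the 5 passed the test (limma on log2(FPKM + 1), adjusted p under 0.05 over 12231 genes), where 0.401% of all tested genes passed, 0.286% as higher and 0.114% as lower with miR-200a. At an unadjusted limma p under 0.05 there was 1, CDH5, where 13.3% of all tested genes lay. In none of the 5 did the groups separate, which 19.0% of all tested genes did, 8.29% with miR-200a above and 10.7% with it below. The median log2 difference was -0.02 over the 5 and -0.01 over all tested genes.

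**Figure D1:**
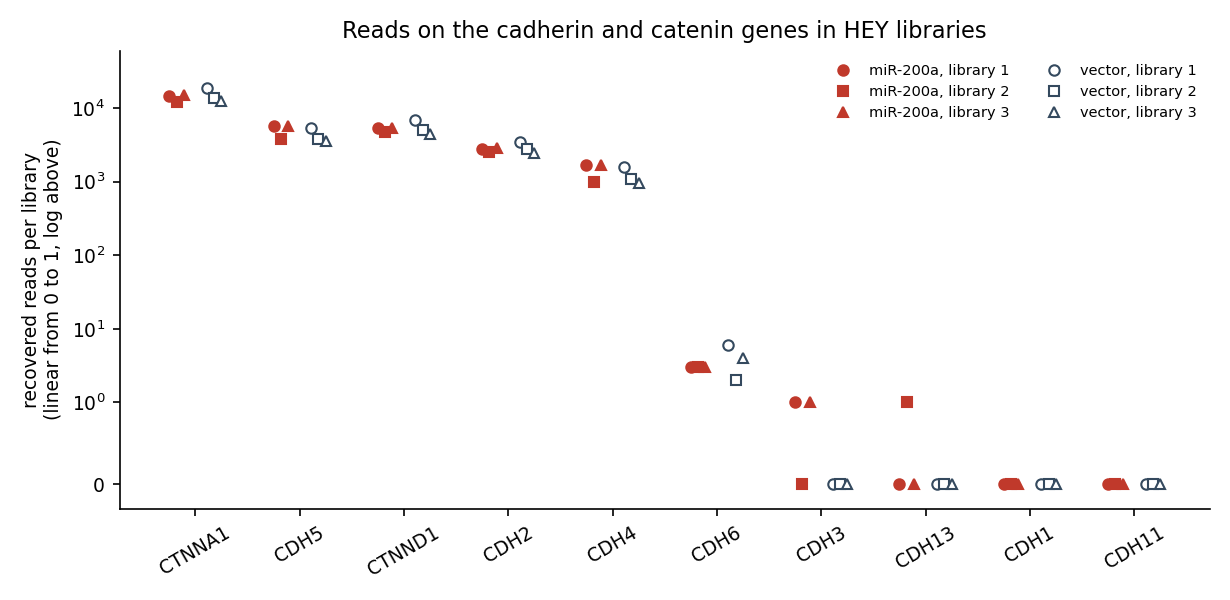
Recovered reads on each of the 10 genes, per library, ordered by mean FPKM, with miR-200a libraries as filled and vector libraries as open symbols. The vertical axis is linear from 0 to 1 and logarithmic above. CTNNA1, CDH5, CTNND1, CDH2 and CDH4 lie between 966 and 18413 reads per library, and CDH6, CDH3, CDH13, CDH1 and CDH11 between 0 and 6.

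The most abundant cadherin was CDH5, VE-cadherin, the adhesion molecule that defines junctions between endothelial cells (ENSG00000179776, chromosome 16, 66366622 to 66404786, GRCh38). It stood at 51.1, 39.5 and 50.4 FPKM in miR-200a libraries 1 to 3, against 42.2, 35.2 and 36.5 FPKM in vector libraries 1 to 3. miR-200a 1 and 3 were the highest, vector 1 lay above miR-200a 2, and the groups overlapped. The means were 47.0 ± 6.50 FPKM with miR-200a and 38.0 ± 3.72 FPKM with the vector (SD, n = 3 each). The log2 difference was 0.30 (SE 0.12, 95% interval 0.01 to 0.58), with a limma p of 0.045 and an adjusted p of 0.367. In bulk RNA, fewer cells expressing a gene and less RNA per cell cannot be told apart.

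CDH4, R-cadherin, best known from retina and brain (ENSG00000179242, chromosome 20, 61252426 to 61940617), stood at a lower level, and its highest libraries were also miR-200a 1 and 3 and then vector 1. Its values were 12.4, 8.42 and 12.2 FPKM in miR-200a libraries 1 to 3, against 10.2, 8.38 and 8.12 FPKM in vector libraries 1 to 3. miR-200a 2 lay below vector 1 and close to vector 2, and the groups overlapped. CDH4 averaged 11.0 ± 2.24 FPKM with miR-200a and 8.90 ± 1.13 FPKM with the vector (SD, n = 3 each), a log2 difference of 0.27 (SE 0.15, 95% interval -0.10 to 0.63, limma adjusted p = 0.466).

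miR-200a 1 and 3, the libraries with the highest CDH5 and CDH4, also had the highest correlations with GC content. Vector 3 had the highest such correlation of the vector libraries and the lowest CDH4 of all 6, and its CDH5 was below that of miR-200a 2. The longest transcripts of CDH5 and CDH4 are 54.5% and 59.0% GC, against 44.97% for CDH2, and the part of GC content in their values was not tested beyond the correction that follows. With a correction of each library for GC content and length, the log2 difference of CDH5 was 0.22 (95% interval 0.04 to 0.39, limma adjusted p = 0.226) and that of CDH4 was 0.14 (95% interval -0.09 to 0.37, limma adjusted p = 0.512). Without miR-200a 2 the log2 differences were larger, 0.41 for CDH5 (limma adjusted p = 0.0668) and 0.43 for CDH4 (limma adjusted p = 0.0718), and neither passed. Without vector 1 they were 0.37 and 0.36 (limma adjusted p = 0.358 and 0.393). Without any other library they were smaller than with all 6. The smallest, without miR-200a 1, were 0.23 for CDH5 and 0.18 for CDH4 (limma adjusted p = 0.829 and 0.882).

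**Figure D2:**
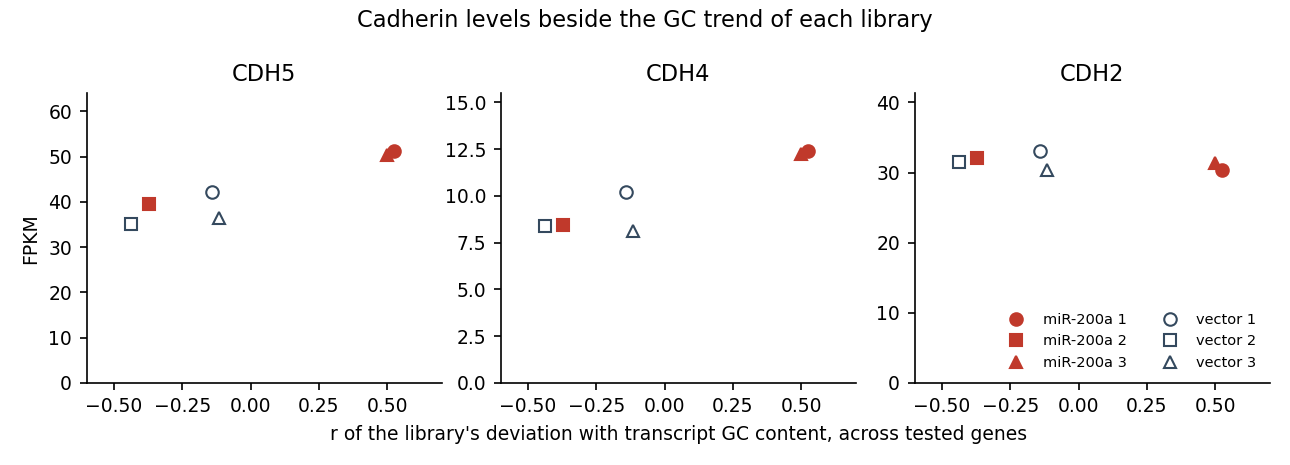
FPKM of CDH5, CDH4 and CDH2 in each library (vertical axis, from 0) against the correlation of that library's deviation with transcript GC content across tested genes (horizontal axis), with miR-200a libraries filled and vector libraries open. miR-200a 1 and 3 lie at the right, at 0.52 and 0.50, with the highest CDH5 and CDH4, while CDH2 is level at 30.3 to 33.0 FPKM.

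CDH2, N-cadherin, the cadherin of neurons and mesenchymal cells (ENSG00000170558, chromosome 18, 27950966 to 28177446), was nearly level. It stood at 30.4, 32.1 and 31.3 FPKM in miR-200a libraries 1 to 3, against 33.0, 31.5 and 30.3 FPKM in vector libraries 1 to 3. All 3 miR-200a values lay inside the vector range, and the coefficient of variation over the 6 libraries was 3.28%, against 16.1% for CDH5 and 19.7% for CDH4. The log2 difference was -0.02 (SE 0.07, limma adjusted p = 0.928). Its 95% interval ran from -0.18 to 0.15, which is 0.885-fold to 1.11-fold on the FPKM + 1 scale. An annotated antisense gene, AC110015.1, overlaps 136 exon bases of CDH2, but had 44 reads over all libraries where CDH2 had 16839.

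**Figure D3:**
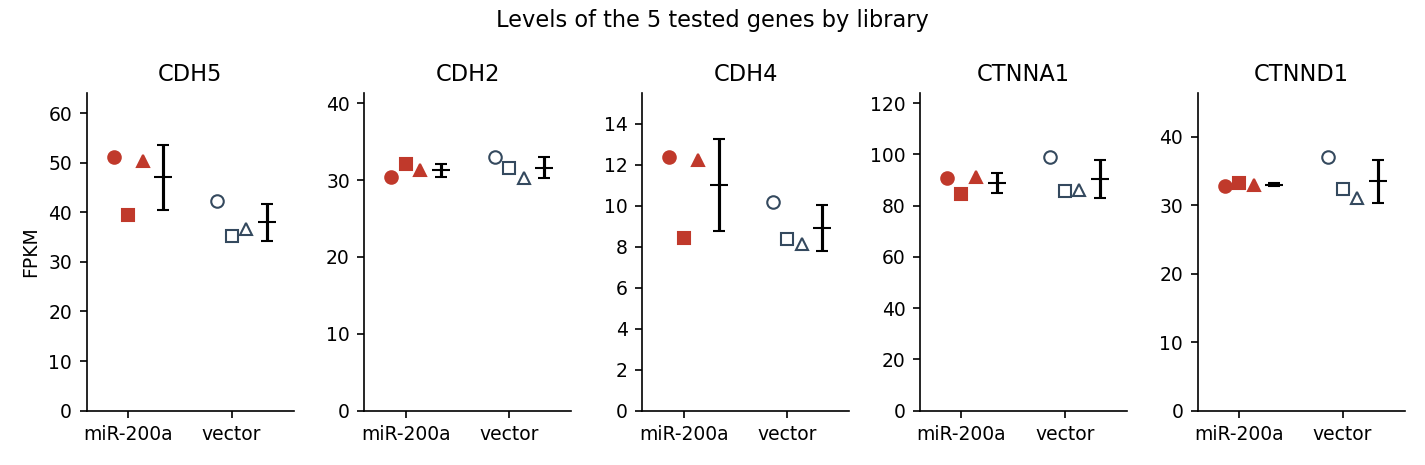
FPKM of the 5 tested genes in each library, with the mean and SD (n = 3) beside each group; circles, squares and triangles are libraries 1, 2 and 3 and each axis starts at 0. In CDH5 and CDH4 the circle and triangle of miR-200a lie above every vector library and the square does not, and in the other genes the groups overlap.

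E-cadherin was not seen in either group. CDH1 (ENSG00000039068, chromosome 16, 68737225 to 68835548) had 0 reads in each of the 3 miR-200a libraries and 0 in each of the 3 vector libraries, out of 107434035 reads in all. A floor of 3 reads corresponds to 0.0231 to 0.0304 FPKM in a single library, or 0.0045 FPKM over all 6. A level below that would give fewer than 3 reads on average and could have been missed (intervals and floors cover counting error only). CDH11, OB-cadherin of osteoblasts and mesenchymal cells (ENSG00000140937, chromosome 16, 64943753 to 65126112), also had 0 reads in all 6 libraries, with a floor of 0.00208 FPKM over all of them.

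The remaining 3 cadherins had 0 to 6 reads per library. CDH3, P-cadherin of epithelial basal layers (ENSG00000062038, chromosome 16, 68636189 to 68722616), had 1, 0 and 1 reads in the miR-200a libraries and 0 in each vector library. The 2 reads have a 95% Poisson interval of 0.242 to 7.22, and 0 reads one up to 3.69, so the intervals overlap and a difference could not be detected with so few reads. CDH13, T-cadherin (ENSG00000140945, chromosome 16, 82626803 to 83800640), had 1 read, in miR-200a 2. CDH6, K-cadherin, known from the kidney and from renal and ovarian carcinomas (ENSG00000113361, chromosome 5, 31193750 to 31329146), had 3, 3 and 3 reads in the miR-200a libraries, against 6, 2 and 4 in the vector libraries (exact two-sided permutation test on log2(FPKM + 1), p = 0.4, where 3 against 3 libraries cannot go below 0.1).

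ZEB1 and ZEB2 were detected in all 6 libraries. ZEB1 stood at 23.5, 28.5 and 23.4 FPKM in miR-200a libraries 1 to 3, against 27.7, 29.4 and 27.3 FPKM in vector libraries 1 to 3 (limma adjusted p = 0.464). ZEB2 stood at 1.04, 0.962 and 0.910 FPKM, against 2.10, 2.02 and 1.61 FPKM with the vector, with no overlap (limma adjusted p = 0.112). Of all tested genes, 10.7% lay wholly below the vector libraries with miR-200a. Of the settings with all 6 libraries, ZEB2 passed in the voom fits on recovered reads alone (adjusted p = 0.00444, and 0.00109 with the low filter). CDH1 stood at 0 reads beside both levels of ZEB2, and the part of ZEB1 or ZEB2 in this was not tested.

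Of the 8 cadherins listed here on chromosome 16, CDH5 was the single one above 0.1 FPKM. CDH16, which starts 503336 bases after the end of CDH5, had 2 reads over all libraries, and CDH3 and CDH1, 14609 bases apart from each other, lie 2231403 bases and more beyond CDH5. Of 23 other tested genes within 1 Mb of CDH5, 7 had a positive log2 difference and the median was -0.08, and of 25 within 1 Mb of CDH4, 8 had one and the median was -0.03. Of neither set did any pass.

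Of the 8 cadherins of the group, CDH5 held 54.5, 49.4 and 53.6% of the summed FPKM in miR-200a libraries 1 to 3, against 49.4, 46.8 and 48.7% in vector libraries 1 to 3. CDH2 held 32.3, 40.1 and 33.4% with miR-200a, against 38.7, 42.0 and 40.4% with the vector. CDH4 held 10.5 to 13.2% with miR-200a and 10.8 to 11.9% with the vector. The sum was 93.9, 80.1 and 94.0 FPKM with miR-200a, against 85.4, 75.1 and 75.0 FPKM with the vector, so miR-200a 2, unlike the others of its group, lay inside the vector range for the sum and for the CDH2 share. FPKM here divides by the length of all annotated exons of a gene, so a ratio between genes shifts where a cell uses only part of them.

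**Figure D4:**
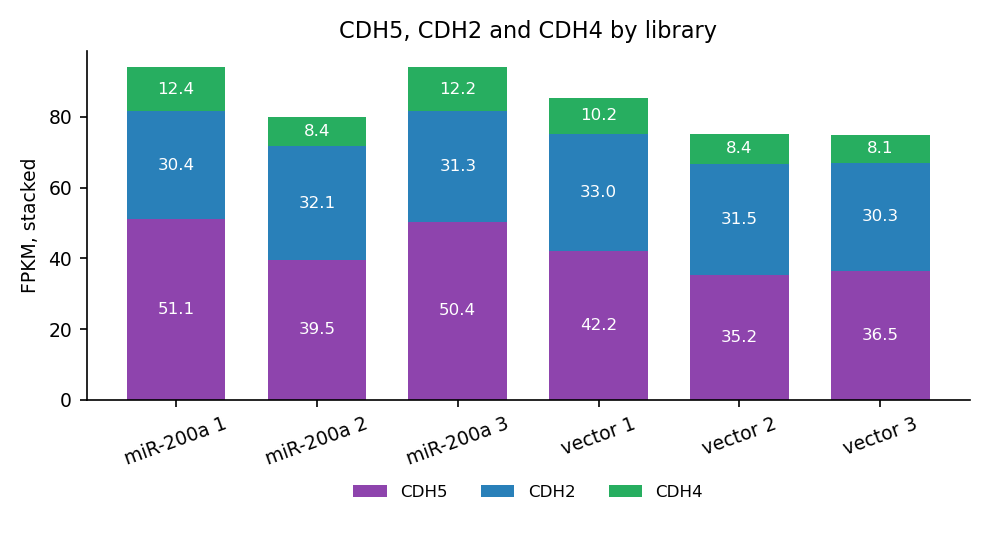
FPKM of CDH5, CDH2 and CDH4, stacked for each library, with miR-200a libraries at the left and vector libraries at the right. CDH5 forms the largest block in every library, and the stack reaches 93.9 FPKM in miR-200a 1 and 3 but 80.1 in miR-200a 2.

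Both catenins were abundant and close to level between the groups. CTNNA1, alpha-catenin (ENSG00000044115, chromosome 5, 138610967 to 138935034), had the highest level of the 10 and was 375th of 12231 tested genes by mean FPKM. It stood at 90.7, 84.5 and 91.4 FPKM in miR-200a libraries 1 to 3, against 99.0, 85.8 and 86.3 FPKM in vector libraries 1 to 3. The groups overlapped, and the log2 difference of this gene, the one with a miR-200a seed match, was -0.02 (SE 0.08, 95% interval -0.22 to 0.18, limma adjusted p = 0.916). The interval corresponds to 0.859-fold to 1.13-fold on the FPKM + 1 scale.

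CTNND1, p120-catenin (ENSG00000198561, chromosome 11, 57753243 to 57819546), stood at 32.9, 33.2 and 32.9 FPKM in miR-200a libraries 1 to 3, against 37.1, 32.4 and 31.0 FPKM in vector libraries 1 to 3. All 3 miR-200a values lay inside the vector range. The log2 difference was -0.02 (SE 0.08, 95% interval -0.21 to 0.18, limma adjusted p = 0.935). The annotated readthrough gene TMX2-CTNND1 shares 321 exon bases with it and had no read. The isoforms of CTNND1 were not analysed here.

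Set against the summed FPKM of the 8 cadherins, CTNNA1 amounted to 0.965, 1.06 and 0.973 in miR-200a libraries 1 to 3, against 1.16, 1.14 and 1.15 in vector libraries 1 to 3. CTNND1 amounted to 0.350, 0.415 and 0.350 with miR-200a, against 0.434, 0.431 and 0.414 with the vector. These ratios combine level catenins with the CDH5 and CDH4 values, and again miR-200a 2 was the closest of its group to the vector libraries; they are given without a test.

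Beta-catenin and plakoglobin, which compete for the same place on the cadherin tail, differed widely in level. CTNNB1 stood at 47.3, 50.1 and 47.9 FPKM in the miR-200a libraries, against 52.1, 51.0 and 50.0 FPKM in the vector libraries (log2 difference -0.07, 95% interval -0.23 to 0.08, limma adjusted p = 0.617). JUP, the gene of plakoglobin, which also serves desmosomes, was far below the test's filter, with 18, 13 and 21 reads in the miR-200a libraries, against 8, 5 and 2 in the vector libraries. Every miR-200a library lay above every vector library, which 8.29% of the tested genes, a set without JUP, also did. JUP averaged 0.197 ± 0.031 FPKM with miR-200a and 0.0528 ± 0.026 FPKM with the vector (SD, n = 3 each, exact two-sided permutation p = 0.1, the smallest possible). In a voom fit over the 20900 genes with at least 10 summed reads, added after its values were seen, its log2 difference was 1.85 (95% interval 0.78 to 2.93, adjusted p = 0.123, and 0.315 with limma on log2(FPKM + 1) without a filter). The longest JUP transcript is 61.5% GC.

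A list of 9 genes held other catenins, their relatives and CTNNBIP1, which is not itself a catenin. Of these, 5 were tested, 0 rose and 0 fell, and 3 had positive differences. The median log2 difference was 0.30 beside -0.01 over all tested genes, and it counts CTNNBIP1, the highest of the 5 at 0.47. CTNNBIP1, which keeps beta-catenin from its transcription partners, averaged 8.32 ± 1.12 FPKM with miR-200a and 5.70 ± 0.54 FPKM with the vector (limma adjusted p = 0.188). CTNNAL1, an alpha-catenin relative, averaged 51.4 ± 3.78 FPKM with miR-200a and 41.4 ± 2.06 FPKM with the vector (limma adjusted p = 0.234). ARVCF, a relative of p120-catenin, averaged 2.15 ± 0.34 FPKM with miR-200a and 1.43 ± 0.29 FPKM with the vector (limma adjusted p = 0.316). In these 3, which were picked by smallest limma p, the groups did not overlap, as in 19.0% of all tested genes. In the other tested genes of this list, CTNNB1 and PKP4, they overlapped. CTNNAL1 passed with the GC and length correction (limma adjusted p = 0.0451), a setting that called 130 genes higher and 74 lower. CTNNBIP1 passed without miR-200a 2 (limma adjusted p = 0.0441), where 160 genes were called higher and 65 lower. With all 6 libraries and no correction these counts were 35 and 14. With another library left out, the limma adjusted p of CTNNBIP1 reached 0.575.

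Of 12 further classical and type II cadherins, CDH24 alone was tested and 6 had no read in any library. CDH24, a type II cadherin, averaged 5.22 ± 0.91 FPKM with miR-200a and 4.10 ± 0.16 FPKM with the vector. Its groups overlapped (limma adjusted p = 0.375, 0.0498 without miR-200a 2 and up to 0.833 with another library left out). Its longest transcript is 64.2% GC. CDH10, a type II cadherin of brain, had 5, 6 and 6 reads in the miR-200a libraries, against 2, 0 and 1 in the vector libraries. It was chosen after its values were seen (exact two-sided permutation p = 0.1, voom adjusted p = 0.271 over the 20900 genes, and 0.388 with limma without a filter).

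Of 27 other genes of the cadherin superfamily, 7 were tested, 0 rose and 0 fell, with a median log2 difference of 0.16. PCDH1, a protocadherin of epithelia, stood at 17.0, 12.1 and 18.1 FPKM in miR-200a libraries 1 to 3, against 11.7, 9.46 and 10.7 FPKM in vector libraries 1 to 3. Its log2 difference was 0.51 (limma adjusted p = 0.281, 0.0441 without miR-200a 2 and up to 0.741 with another library left out). CELSR1, which works in planar cell polarity, averaged 6.78 ± 1.57 FPKM with miR-200a and 4.85 ± 0.56 FPKM with the vector (limma adjusted p = 0.360). CLSTN3, a calsyntenin, averaged 6.11 ± 0.94 FPKM with miR-200a and 5.32 ± 0.35 FPKM with the vector (limma adjusted p = 0.520). As with CDH5, miR-200a 2 was the lowest of its group in each of these, and their longest transcripts are 57.7 to 61.4% GC.

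Of 25 partners of the adherens junction, 20 were tested, 0 rose and 0 fell, 12 had positive differences and the median log2 difference was 0.04. In 3 of the 20 every miR-200a library lay above every vector library, and in 1 below. Of all tested genes, 8.29% lay above and 10.7% below in this way. SHROOM3, which drives apical constriction, stood at 2.70, 2.46 and 3.11 FPKM in miR-200a libraries 1 to 3, against 1.76, 1.56 and 1.75 FPKM in vector libraries 1 to 3. It had no overlap (log2 difference 0.48, 95% interval 0.25 to 0.71, limma adjusted p = 0.129), and passed by voom on recovered reads (adjusted p = 0.0194) and with the GC and length correction (adjusted p = 0.0451). The scaffold gene TJP1 averaged 17.2 ± 0.43 FPKM with miR-200a and 14.2 ± 1.27 FPKM with the vector (limma adjusted p = 0.285, and 0.0336 with the GC and length correction). The adhesion receptor gene NECTIN2 averaged 35.8 ± 2.79 FPKM with miR-200a and 29.97 ± 2.36 FPKM with the vector (limma adjusted p = 0.336). CDC42 was listed at 0.134 to 0.209 FPKM with miR-200a and 0.198 to 0.498 FPKM with the vector. The overlapping gene model AL031281.2 covers 57.1% of its exon bases, so this level is uncertain.

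Genes of cadherin cleavage and traffic numbered 14, all tested, of which 0 rose and 0 fell, with 4 positive differences and a median log2 difference of -0.03. The kinase gene FER, whose product acts on catenins, averaged 4.58 ± 0.39 FPKM with miR-200a and 5.24 ± 0.30 FPKM with the vector (limma adjusted p = 0.424). GIPC1, an adaptor of membrane traffic, averaged 30.6 ± 5.50 FPKM with miR-200a and 25.7 ± 4.18 FPKM with the vector (limma adjusted p = 0.521).

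**Figure D5:**
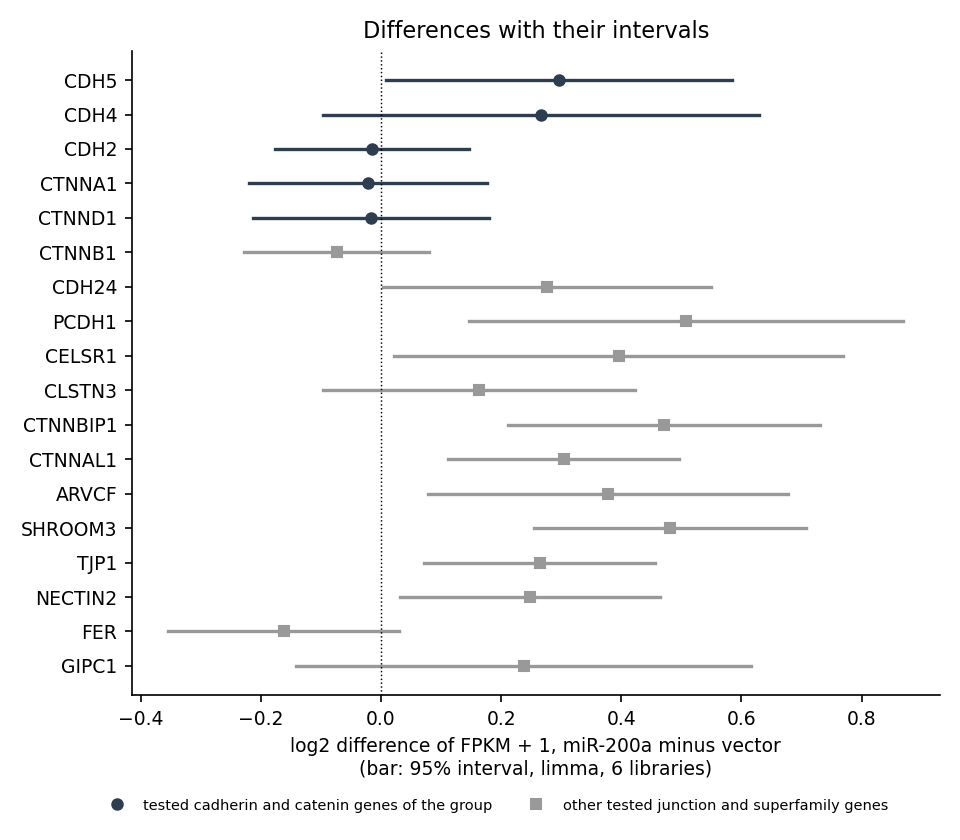
Log2 difference of FPKM + 1, miR-200a minus vector, with its 95% interval from limma over 6 libraries, for the 5 tested cadherin and catenin genes (circles), CTNNB1 and the other tested genes described beside them (squares). CDH2, CTNNA1 and CTNND1 lie at -0.02, CDH5 at 0.30 and CDH4 at 0.27, and no gene passed after adjustment.

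The VE-cadherin level stood beside a partial set of endothelial genes. Of 14 endothelial markers, 4 reached 1 FPKM in at least 3 libraries, the receptor genes TIE1 and ROBO4, the secreted EGFL7 and the adhesion gene ESAM. TIE1 stood at 76.7, 53.5 and 76.1 FPKM in miR-200a libraries 1 to 3, against 61.9, 54.1 and 62.7 FPKM in vector libraries 1 to 3. ROBO4 stood at 11.8, 7.86 and 11.3 FPKM with miR-200a, against 9.15, 7.34 and 9.14 FPKM with the vector. In both, as for CDH5, miR-200a 1 and 3 were highest and the groups overlapped. EGFL7 stood at 7.63, 5.15 and 7.09 FPKM with miR-200a, against 4.15, 4.30 and 4.50 FPKM with the vector. ESAM stood at 1.32, 1.27 and 1.78 FPKM with miR-200a, against 0.862, 1.03 and 0.571 FPKM with the vector. In EGFL7 and ESAM every miR-200a library lay above every vector library, which 8.29% of all tested genes did. ERG, another of the 14 but below the filter, went the other way without overlap. It stood at 0.231 to 0.347 FPKM with miR-200a and 0.375 to 0.457 FPKM with the vector.

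Other defining endothelial genes were near 0. PECAM1 stayed at 0.187 to 0.428 FPKM and KDR at 0.162 to 0.276 FPKM over the 6 libraries, VWF averaged 0.0996 FPKM with miR-200a and 0.106 FPKM with the vector, and EMCN and FLT1 had 2 reads each. None of the 14 was at 0 in all libraries. The summed level of the 14 was 69.1 to 100.1 FPKM with miR-200a and 68.5 to 78.7 FPKM with the vector, and its part in the CDH5 values was not tested. None of the 4 passed (limma adjusted p of 0.222 to 0.577).

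The genes whose levels followed CDH5 most closely over the 6 libraries, of 12230 compared, were TNS1, KDM5C and PEAR1, with Pearson correlations of 0.999, 0.998 and 0.997 on log2(FPKM + 1). TNS1 encodes a focal adhesion protein, KDM5C a histone demethylase and PEAR1 a platelet and endothelial receptor. TNS1 stood at 8.89, 6.71 and 8.63 FPKM in miR-200a libraries 1 to 3, against 7.24, 5.78 and 6.10 FPKM in vector libraries 1 to 3. CDH4 was 197th with 0.97, and 975 genes exceeded 0.9. All of these correlations rest on the same 6 libraries, with their differences in depth and GC lean, and are given as a description. The longest transcripts of the 3 genes are 54.9 to 59.1% GC. CDH2 had a correlation of -0.15 with CDH5, CTNNA1 0.49 and CTNND1 0.23.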

How the data were processed

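The authors' deposited table gives FPKM per gene for 6 libraries. The aligner, counter and strand setting were not stated. GRCm38 and mm10, which are mouse builds, are listed in the submitters' processing notes, but all 58735 gene IDs, positions and lengths equal human GENCODE 29 (GRCh38). FPKM times gene length and 1 factor per library gave whole reads for 100% of nonzero values, within 0.001 of a read, so depth was known: 15849592 to 21003858 reads. In a gene of 1 kb, 1 read amounted to 0.0475 to 0.0626 FPKM.

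Genes with at least 1 FPKM in at least 3 libraries (12231) went into a linear model in limma 3.58.1 (R 4.3.3, eBayes with a trend) on log2(FPKM + 1), two-sided, with Benjamini-Hochberg adjustment and a threshold of 0.05. The scale understates changes of low genes. limma's voom was run on recovered reads. The correction took loess trends (span 0.3) on length and on GC content of the longest transcript out of each library. No pair of libraries agreed within sampling noise, the closest being miR-200a 1 and 3 at a chi-square per degree of freedom of 2.08.

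The genes of the group and all lists were chosen with earlier results of these data known. Named beside them were CTNNB1, JUP, ZEB1, ZEB2, MIR200A, up to 3 tested genes of smallest limma p per list, overlapping genes reaching 1 FPKM and the 3 genes most like the most abundant cadherin. CDC42, AL031281.2, CDH10, CDH16 and TMX2-CTNND1 were chosen after their values were seen. No list test was run. A gene that this rule names is not reported here.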

Additional observations from a re-analysis of the deposited data

How the results depend on the processing

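None of the 5 tested cadherin and catenin genes passed under any of 15 alternatives, and CDH5 and CDH4 kept a positive difference in all of them. With 1 library left out, the log2 difference ran from 0.23 to 0.41 for CDH5, 0.18 to 0.43 for CDH4, -0.044 to 0.016 for CDH2, -0.057 to 0.045 for CTNNA1 and -0.068 to 0.057 for CTNND1. The values of CDH2, CTNNA1 and CTNND1 changed sign with equal FPKM sums (0.010, 0.0041 and 0.0085) and with the GC and length correction, without or with the replicate block (0.029, 0.0061 and 0.023), all of them inside the intervals given. Against 35 genes called higher and 14 lower over all tested genes, there were 4 and 1 without a filter, 81 and 33 by voom, 155 and 51 by voom over genes with at least 10 summed reads (added after seeing the data), 130 and 74 with the GC and length correction, and 9 lower with equal FPKM sums. With 1 library left out there were 4 to 160 higher, the most without miR-200a 2, and 2 to 65 lower. The cause was not tested. Replicate numbers did not pair the libraries throughout (correlations of deviations 0.14, 0.37 and -0.01). miR-200a 1 and 2 correlated best with the vector library of their own number, and miR-200a 3 with vector 1 (0.20). Whether numbers mark shared handling was not settled. The replicate block called 48 higher and 21 lower and gave CDH5 an adjusted p of 0.165. Over the 3′ UTRs of all coding transcripts, 2 of the 10 genes held a seed match, the other being CDH11. Of the tested genes with a scanned UTR, 23.9% did. Depth limits CDH1, CDH3, CDH6, CDH11 and CDH13, where 0 to 6 reads per library were seen.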
